A study of Mus musculus with 35 samples.

Results

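Committed premyelinating oligodendrocytes are the cells that have left the dividing precursor state and have not yet wrapped an axon. In the adult mouse hippocampus they were picked out here as single nuclei by the transcripts of 3 genes: Bcas1, a brain-enriched protein of newly forming oligodendrocytes, Enpp6, a choline phosphodiesterase, and Gpr17, a G-protein-coupled receptor made for a short time between precursor and myelinating cell. A barcode was taken when it held 500 or more genes, at least 1 unique molecular identifier (UMI, 1 counted RNA molecule) of Gpr17 or at least 3 of Enpp6, and a summed count of the 3 genes of 6 or more from 2 or more of them. It also had to hold no Pdgfra (the precursor's growth factor receptor), at most 3 UMIs of the myelin genes Mog and Mag, and at most 3 of the neuronal genes Snap25 and Rbfox3. This rule found 315 of 142840 barcodes with 500 or more genes, or 0.221%, and between 12 and 44 in each of 14 libraries. The same counts chose the nuclei, so the levels of these genes describe the choice and are no result.

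Nuclei came from frozen hippocampus of C57BL/6 mice aged 9 months, in 4 groups: wild type (WT, 3 libraries), PS19 (3 libraries), CLEAR mutant (CLEAR, 4 libraries) and the cross of CLEAR mutant with PS19 (CLEAR_PS19, 4 libraries). In each group 1 library came from a female and the others from males. PS19 mice carry a mutant human tau transgene driven by the prion protein (Prnp) promoter, which is active in many cell types. The CLEAR mutation alters a site bound by TFEB, a transcription factor, at Atp6v1h, the H subunit of the vacuolar proton pump (V-ATPase); the labels give only the name of the mutant. Bulk RNA from hippocampus was sequenced from WT and PS19 mice alone, at 4 months (6 and 6 libraries) and 9 months (5 and 4 libraries), with 9630430 to 17182605 counts per library. The labels number the replicates but do not say whether animals were pooled, so p-values measure the spread between these libraries.

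Oligodendrocyte precursors divide and carry Pdgfra. On commitment they stop dividing, switch on Bcas1, Enpp6 and Gpr17, and either mature into myelinating cells or die, so the stage is short and its cells are rare in adult tissue. TFEB, the master regulator of lysosomal genes, is known to limit myelination at this stage by raising Puma (the product of Bbc3), a protein that triggers cell death. TFEB binds the CLEAR element, whose core is the palindrome TCACGTGA.

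That element is shown here in genes of the pump that hold it near their start. The mutation studied alters such a site at Atp6v1h, as far as the design is known. No promoter of Atp6v1h was available, so the altered site itself is not shown. Of 20 V-ATPase genes, 14 had a promoter (250 bases before to 50 after the start) in the RefSeq table for GRCm38.p6, and 3 of those held TCACGTGA on either strand. Among all promoters in the table, 320 of 32851 (0.974%) held it, and 2349 (7.15%) held its inner letters CACGTG. The 60 bases around each match read 5′ to 3′ on the gene's strand, with the 8 letters in capitals:
Atp6v0d1 (chr8:105566035-105566094, minus strand): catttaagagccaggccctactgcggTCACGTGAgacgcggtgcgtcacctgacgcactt
Atp6v1a (chr16:44139358-44139417, minus strand): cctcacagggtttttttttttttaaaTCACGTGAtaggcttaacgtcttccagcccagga
Atp6v0e (chr17:26676372-26676431, plus strand): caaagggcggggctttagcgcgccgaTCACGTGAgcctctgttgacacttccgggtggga
A match is a description of these letters and no evidence of binding. Atp6v0d1 and Atp6v0e belong to the membrane-bound part of the pump and Atp6v1a to its catalytic part.

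The promoters of 3 further genes are printed whole, with CACGTG in capitals where it occurs, which is in Gm3448 alone of these 3. Enpp6 is one of the genes that define the nuclei, and Col20a1, a collagen, and Gm3448 are genes that changed with the tau transgene below. The start of Gm3448 in RefSeq lies within the span that GENCODE gives the gene:
Enpp6 (chr8:46986637-46986936, plus strand): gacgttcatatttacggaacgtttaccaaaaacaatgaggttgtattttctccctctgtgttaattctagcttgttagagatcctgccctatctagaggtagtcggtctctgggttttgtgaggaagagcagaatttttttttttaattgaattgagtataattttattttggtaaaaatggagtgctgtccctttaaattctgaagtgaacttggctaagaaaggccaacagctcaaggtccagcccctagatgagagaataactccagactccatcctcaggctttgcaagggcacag
Col20a1 (chr2:180986285-180986584, plus strand): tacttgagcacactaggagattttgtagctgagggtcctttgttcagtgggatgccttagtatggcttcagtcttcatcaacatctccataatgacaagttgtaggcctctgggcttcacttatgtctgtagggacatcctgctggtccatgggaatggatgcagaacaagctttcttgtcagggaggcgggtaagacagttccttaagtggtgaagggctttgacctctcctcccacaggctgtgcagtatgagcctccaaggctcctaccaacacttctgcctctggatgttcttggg
Gm3448 (chr17:15010135-15010434, minus strand): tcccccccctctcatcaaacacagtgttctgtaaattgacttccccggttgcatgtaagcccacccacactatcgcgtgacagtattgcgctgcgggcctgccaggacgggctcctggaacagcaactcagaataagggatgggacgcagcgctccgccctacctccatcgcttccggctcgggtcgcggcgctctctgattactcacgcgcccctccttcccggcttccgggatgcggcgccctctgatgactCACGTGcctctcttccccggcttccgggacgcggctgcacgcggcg

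Bcas1 was present in all 315 nuclei, with a median of 18 UMIs (1 to 78). Enpp6 was present in 248 (78.7%, median 3, 0 to 29) and Gpr17 in 229 (72.7%, median 1, 0 to 15). All 3 genes were found together in 162 nuclei, Bcas1 with Enpp6 in 86 and Bcas1 with Gpr17 in 67. Shares of nuclei with at least 1 UMI in microglia, which should lack these genes, were 4.47% for Bcas1, 0.913% for Enpp6 and 0.681% for Gpr17, at a median of 2138 UMIs against 4393 in the premyelinating nuclei. Just inside the threshold on the summed count stood 23 nuclei at 6 and 16 at 7, and just outside it 43 at 5 and 52 at 4. At the threshold on Mog and Mag, 46 nuclei were taken at 3 and 61 were left out at 4. Of 1031 barcodes that met the part of the rule on Bcas1, Enpp6 and Gpr17, 472 held more Mog and Mag than allowed, 239 held Pdgfra and 83 held too much Snap25 and Rbfox3. No barcode among the 315 occurred in 2 libraries, although the libraries shared 10 to 70 barcodes over their 91 pairs.

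The label was checked with 11 markers of the stage that the rule did not use. At least 3 of them were found in 268 of 315 nuclei (85.1%), with a median of 7 per nucleus, and 26 nuclei held none. The split followed the summed count of the 3 defining genes: 248 of 252 nuclei at 10 or more held at least 3 of the markers, against 20 of 63 nuclei at 6 to 9, whose median was 1. The split also differed in depth, with a median of 4875 UMIs per nucleus at 10 or more and 2949 at 6 to 9. Summed over the myelin genes outside the type rules, the 63 nuclei stood at 16861 CPM and the 252 at 9716 CPM, and 3 genes of mature cells, chosen after their values were seen, differed by more. Pooled over libraries, on the counts-per-million scale (CPM) relative to all UMIs of the nuclei concerned, Mobp, a myelin structural gene, stood at 498 in them and 13.4 in the other 252. Aspa, the enzyme that splits N-acetylaspartate, stood at 694 against 23.9, and Trf, which encodes the iron carrier transferrin, at 1142 against 62.6. The stage markers went the other way, with Bmp4, a secreted signal that holds back differentiation, at 25.2 against 364.6, and Fyn, a kinase that promotes myelin protein synthesis, at 367 against 3996. Nuclei at 6 to 9 made up 27.8% of the WT nuclei, 19.6% of the PS19 nuclei, 26.2% of the CLEAR nuclei and 12.1% of the CLEAR_PS19 nuclei. By these markers the name fits the 252 nuclei at 10 or more better than the 63 others, most of which held fewer than 3 of them. The markers were not counted in precursors, where Itpr2 averaged 495 CPM and Neu4 219 CPM, so the count does not set these nuclei apart from precursors. Lims2, 1 of the 11, overlaps Gpr17, which the rule used.

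**Figure D1:**
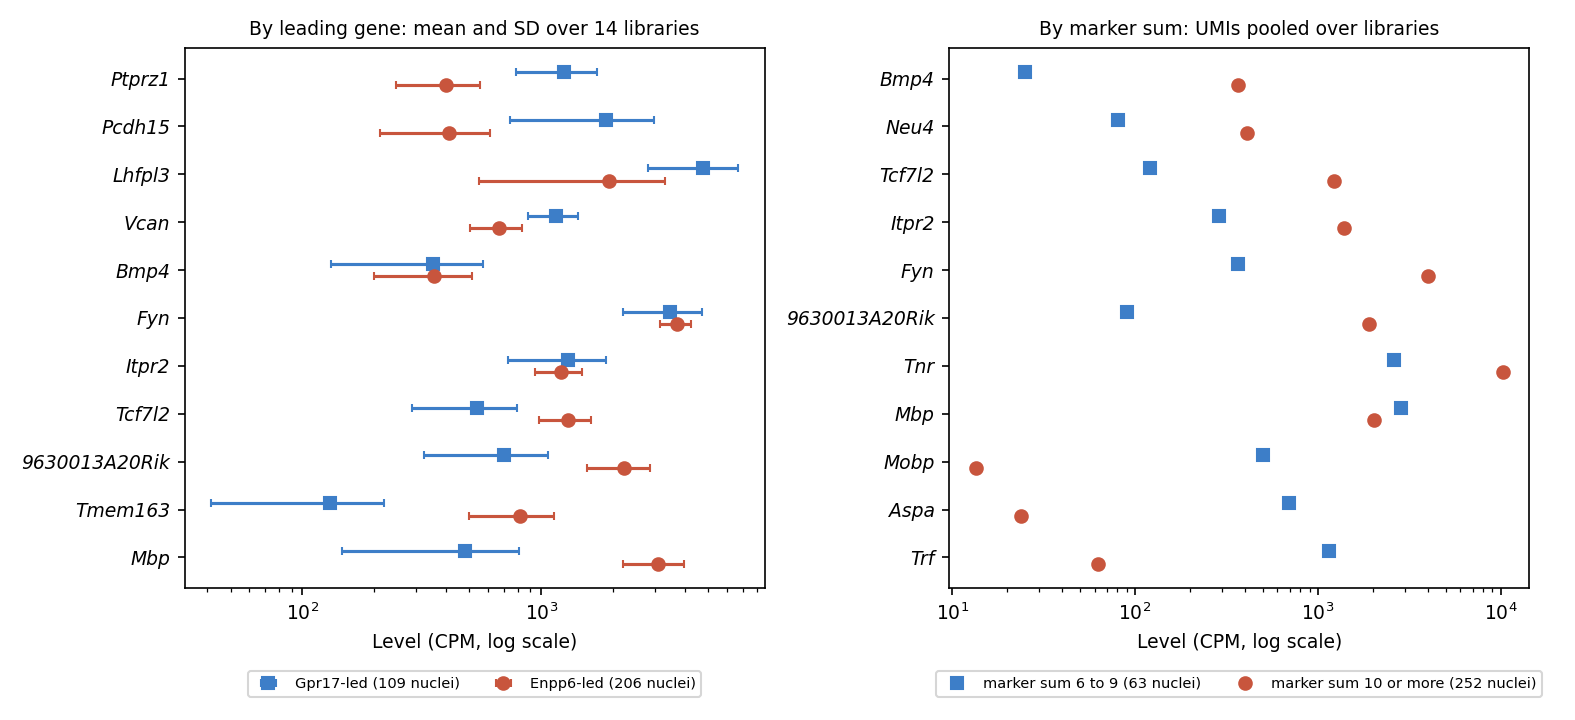
Levels (CPM, log axis) of marker genes within the premyelinating nuclei. The left panel compares nuclei with more Gpr17 than Enpp6 (109) with the others (206), as mean and SD over 14 libraries; the right panel compares nuclei with a summed marker count of 6 to 9 (63) with those at 10 or more (252), as UMIs pooled over libraries, where Bmp4 stands at 25.2 against 364.6 CPM and Mobp at 498 against 13.4.

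RNA of other cell types was present at low levels. All 8 neuronal, all 6 microglial and all 6 astrocyte markers had at least 1 UMI in the 315 nuclei, and of 6 vascular markers Cldn5 was at 0. Summed over each list, neuronal markers ranged from 127 to 365 CPM per library in WT, 161 to 370 in PS19, 166 to 1416 in CLEAR and 55.9 to 242 in CLEAR_PS19. The highest of these was CLEAR replicate 1. Microglial markers ranged from 54.7 to 185 CPM in WT, 173 to 247 in PS19, 47.5 to 147 in CLEAR and 73.3 to 434 in CLEAR_PS19. Astrocyte markers ranged from 54.7 to 849 CPM in WT, where replicate 2 was the highest, 72.7 to 150 in PS19, 88.4 to 183 in CLEAR and 37.3 to 91.6 in CLEAR_PS19. A doublet caller marked 49 of the nuclei (15.6%, against 8.51% of all barcodes with 500 or more genes). Of these, 16 were among the 23 nuclei of CLEAR_PS19 replicate 1, and CLEAR_PS19 replicates 3 and 4 had 0. Astrocyte markers summed to 422 CPM in the called nuclei against 91.1 in the rest, and microglial markers outside the type rules summed to 241 CPM against 27.7. Their part in the results below was not tested, other than by leaving out the called doublets.

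The premyelinating nuclei stood between precursors (2730 nuclei, chosen by Pdgfra and precursor genes) and mature oligodendrocytes (20303 nuclei, chosen by Mog and Mag) in most lineage genes, and above both in the genes of their own stage. All comparisons between types are descriptions with no test, because the types were chosen by their transcripts. Of 16 genes in the premyelinating list, 13 were used by no type rule. Of these 13, 10 were above both other types in every one of 14 libraries and 13 were above both on the mean. They summed to 10471 ± 1026 CPM (SD, n = 14), against 1746 CPM in precursors and 565 CPM in mature cells. Sirt2, a deacetylase found in myelin, averaged 1098 ± 173 CPM in the premyelinating nuclei, 151 in precursors and 172 in mature cells. Fyn averaged 3592 ± 285 CPM in the premyelinating nuclei, 256 CPM in precursors and 79.6 CPM in mature cells. Itpr2, a calcium release channel, averaged 1237 ± 250 CPM in the premyelinating nuclei, 495 in precursors and 31.5 in mature cells. The long noncoding RNA 9630013A20Rik averaged 1691 ± 416 CPM, against 89.7 and 61.1. Bmp4 averaged 341 ± 117 CPM in the premyelinating nuclei, 10.8 CPM in precursors and 0.5 CPM in mature cells.

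Precursor genes were kept in part. Of 13 genes in the precursor list that no type rule used, 10 lay between the means of the other types. Pcdh15, a protocadherin of precursors, averaged 848 CPM in the premyelinating nuclei, 3952 in precursors and 255 in mature cells. Lhfpl3, a membrane protein that the rule for precursors used, averaged 2830 CPM in the premyelinating nuclei, 8082 in precursors and 39.4 in mature cells. Tnr, the matrix protein tenascin-R, was an exception and was highest in the premyelinating nuclei at 9105 ± 1009 CPM, against 4242 and 25.3 CPM. Sox6, a transcription factor that holds precursors immature, was also highest there, at 2504 ± 321 CPM against 1812 and 14.1 CPM. Cell cycle genes were nearly silent: 4 of 12 (Top2a, Mcm2, Cdk1 and Ccnb1) had no UMI in any of the 315 nuclei, and the list summed to 27.5 CPM (0 to 65.9 per library) against 126 in precursors.

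Myelin genes were on but below their mature level. Of 22 myelin genes that no type rule used, 21 lay between the other types on the mean, and the 22 summed to 10746 ± 1575 CPM, against 1531 in precursors and 25384 in mature cells. Mbp, which compacts the myelin sheath, averaged 2230 CPM in the premyelinating nuclei, 78.6 in precursors and 4016 in mature cells. St18, a zinc-finger transcription factor, averaged 2764 CPM against 46.9 and 4474. The gene above both was Gjc3, the connexin of myelinating glia, at 1422 CPM against 619 and 906, in 13 of 14 libraries.

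Transcription factors of the lineage were mixed. Of 18, 5 were above both other types in every library: Sox6, Tcf7l2, Sox8, Nkx2-2 and Zfp488. Tcf7l2, a Wnt pathway factor needed for differentiation, averaged 1042 ± 226 CPM in the premyelinating nuclei, 153 in precursors and 66.2 in mature cells. Zeb2, a transcriptional regulator needed for myelination, averaged 2522 CPM against 679 and 2180, and Sox5 averaged 532 CPM against 1278 and 16.8. Of 15 genes that hold back differentiation, Gpr17 and Bmp4 were above both in every library, and Ptprz1, a receptor phosphatase of precursors, lay between at 668 CPM against 2991 and 30.8. The type rules used Gpr17 and Ptprz1.

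The 12 genes of TFEB and cell death summed to 813 ± 212 CPM, most of it Mitf, against 368 in precursors and 693 in mature cells. On the mean 5 of the 12 were above both other types and 4 below both. Mitf, a relative of TFEB, averaged 501 ± 218 CPM in the premyelinating nuclei, 132 in precursors and 189 in mature cells, and was above both in 14 of 14 libraries. Tfeb averaged 93.7 ± 38.7 CPM in the premyelinating nuclei, 18 in precursors and 87.7 in mature cells. Bbc3, which encodes Puma, averaged 3.0 CPM, against 2.7 and 3.8, which is too few molecules to rank the types. Bcl2l1, which encodes the death inhibitor Bcl-xL, averaged 64.4 CPM, against 29.6 and 275, and Bax, which permeabilises mitochondria, 39.1 CPM against 28.2 and 35.6.

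Summed, pump and lysosome genes lay between the other types on the mean. Singly, 7 of 20 V-ATPase genes lay between, 3 above both and 10 below both. Of 36 lysosome genes, 15 lay between, 6 above both and 15 below both. The 20 V-ATPase genes summed to 1184 ± 185 CPM, against 1107 in precursors, 1292 in mature cells and 2196 in microglia. Per library these sums overlapped, at 894 to 1520 CPM in the premyelinating nuclei, 946 to 1361 in precursors and 1071 to 1639 in mature cells. None of the 20 was above both other types in all 14 libraries. Atp6v0a2, a membrane subunit, was above both in 13 of them (110 CPM against 26.8 and 32.2), and Atp6v0a1, its paralog, was below both in all 14 (61.1 CPM against 119 and 98.6). Among the genes with the motif printed above, Atp6v0d1 averaged 88.7 CPM in the premyelinating nuclei, 55.7 in precursors and 60.2 in mature cells, and Atp6v0e 99.2, 61.5 and 43.8. Atp6v1a averaged 46.0 CPM against 47.7 and 51.3. The 36 lysosome genes summed to 1510 ± 255 CPM, against 1325, 1897 and, in microglia, 5692. Lamp2 and Lamp1, proteins of the lysosomal membrane, averaged 156 and 131 CPM in the premyelinating nuclei. Ctsl, the protease cathepsin L, was the lysosome gene above both in every library, at 121 CPM against 39.7 and 40.8. The 17 genes of cholesterol synthesis, which supplies myelin, summed to 387 CPM against 249 in precursors and 473 in mature cells. The 18 reactive genes summed to 841 CPM, against 1085 and 1879, with Sgk1 at 224 CPM and Apoe at 223 CPM.

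**Figure D2:**
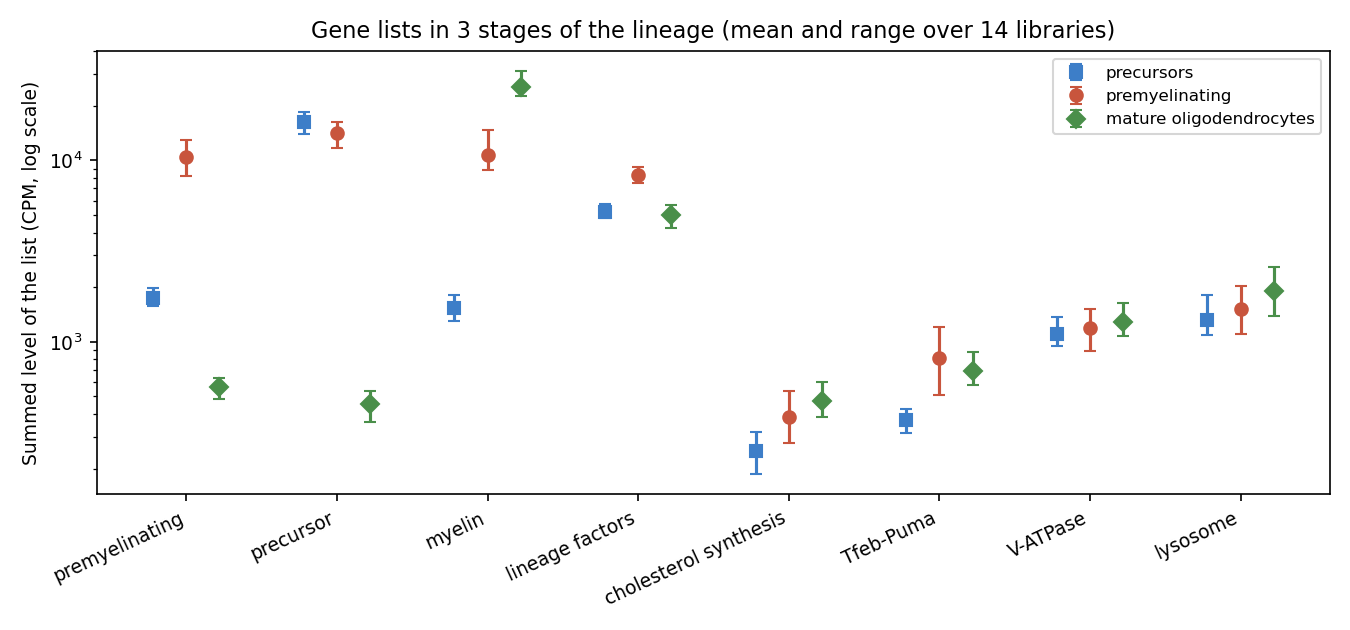
Summed level of each gene list (CPM, log axis; genes used by the type rules left out) in precursors, premyelinating nuclei and mature oligodendrocytes, as mean and range over 14 libraries. The premyelinating list stands at 10471 CPM in the premyelinating nuclei and below 2000 in the other types, and the myelin list at 10746 lies between 1531 and 25384.

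Ranked over 4231 genes by the smaller of their ratios to precursors and to mature cells, the 20 leading genes were above both in all 14 libraries, and 4 of them are in the premyelinating list, 3 used by no type rule (Bmp4, 9630013A20Rik and Fyn) and Enpp6, which chose the nuclei. Beyond Bmp4, 9630013A20Rik, Fyn and Enpp6, the leaders with protein products included Frmd4a, a scaffold of cell polarity, at 7140 ± 3187 CPM against 125 and 200. Frmd4a varied widely between libraries, from 1432 CPM in CLEAR replicate 1 to 13655 in CLEAR_PS19 replicate 4. Map1b, which stabilises growing microtubules, averaged 1198 ± 335 CPM against 97.0 and 88.5. Epb41l2, which links membrane proteins to the spectrin skeleton, averaged 1655 ± 252 CPM against 73.8 and 138.5. Pik3r3, a regulatory subunit of PI3-kinase, averaged 1426 ± 644 CPM against 77.7 and 93.2. Pdcd4, an inhibitor of translation, averaged 739 ± 206 CPM against 74.4 and 54.7, and Chd3, a chromatin remodeller, 629 ± 241 CPM against 59.6 and 17.0. The others with protein products were Nhsl2, Kif19a, Pde9a and Rassf10, at 46.0 to 227 CPM.

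The rest of the 20 were noncoding RNAs that overlap other genes named here. Gm13187 (1190 ± 906 CPM against 8.6 and 5.3) and Gm36988 (311 ± 238 CPM) lie within Frmd4a, Gm16364 (203 CPM) overlaps Fyn, Bcas1os2 (2658 CPM) overlaps Bcas1, and Gm47134 (142 CPM) overlaps 9530059O14Rik (1807 ± 322 CPM against 7.2 and 101.5). Whether the counting used the strand is not given in the sources used here, so reads of overlapping genes cannot be told apart. At the other end, among 2521 genes, Creb5, a transcription factor, averaged 47.8 CPM in the premyelinating nuclei against 242 in precursors and 449 in mature cells. March1, a ubiquitin ligase, averaged 309 CPM against 1914 and 1140, and the growth factor Ptn 167 CPM against 583 and 646. Grik1, a kainate receptor subunit, averaged 62.3 CPM against 407 and 220. Samd4, Slc8a3, Tenm2, Oxr1, Fgf1 and Htra1 completed the 10 lowest, each below both in 14 libraries except Fgf1, in 13.

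Within the set, the balance of Gpr17 and Enpp6 went with the precursor and myelin genes. Gpr17 exceeded Enpp6 in 109 nuclei and Enpp6 equalled or exceeded Gpr17 in 206, with 78 nuclei within 1 UMI of the boundary, so this is a range and not a pair of cell types. Precursor genes were higher on the Gpr17 side: Ptprz1 averaged 1249 ± 467 CPM there and 401 ± 154 CPM on the Enpp6 side, higher in 14 of 14 libraries. Pcdh15 averaged 1859 against 410 CPM and Lhfpl3 4747 against 1931 CPM, each higher in 14 of 14 libraries. Myelin genes were higher on the Enpp6 side: Mbp averaged 3086 CPM there and 478 CPM on the Gpr17 side, in 14 of 14 libraries. Among the stage's own genes, 9630013A20Rik (2211 against 696 CPM) and Tmem163, a zinc transporter (813 against 130 CPM), were higher on the Enpp6 side in 14 of 14 libraries. Bmp4 (356 against 351 CPM) and Fyn (3697 against 3464 CPM) were near level, higher on the Enpp6 side in 6 and 8 of 14 libraries. Summed, precursor genes stood at 16833 CPM on the Gpr17 side and 12889 CPM on the Enpp6 side, and myelin genes at 5332 and 13180 CPM, at median UMI counts per nucleus of 4018 and 4650. Pooled astrocyte markers stood at 319 CPM on the Gpr17 side and 70.1 CPM on the Enpp6 side, and microglial markers outside the type rules at 36.1 and 80.7 CPM; their part in this split was not tested.

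Whether tau or the CLEAR mutation changed how many of these nuclei there were was asked over libraries. In WT 0.108%, 0.292% and 0.222% of barcodes were premyelinating nuclei (mean 0.207 ± 0.093 SD, n = 3). In PS19 the shares were 0.279%, 0.436% and 0.245% (0.320 ± 0.102, n = 3). In CLEAR they were 0.124%, 0.175%, 0.232% and 0.170% (0.175 ± 0.044, n = 4), and in CLEAR_PS19 0.175%, 0.174%, 0.372% and 0.166% (0.222 ± 0.10, n = 4). PS19 and WT overlapped, and in CLEAR_PS19 replicate 3 stood above the rest. The lowest share, WT replicate 1, had a 95% exact (Clopper-Pearson) interval of 0.0559% to 0.189% and the highest, PS19 replicate 2, one of 0.317% to 0.585%; these intervals cover counting error only. Averaged over both CLEAR states, tau libraries were higher by 0.0796 percentage points (SE 0.0483), which did not pass an exact two-sided permutation test (p = 0.15, adjusted p = 0.306 over 4 share tests). CLEAR libraries differed by -0.0650 percentage points (exact permutation p = 0.180), and by -0.0901 without CLEAR_PS19 replicate 3 (unadjusted exact permutation p = 0.0457). Without PS19 replicate 2 the CLEAR difference was -0.0360 (exact permutation p = 0.423), and compared within library sets -0.0144 (exact permutation p = 0.778). The number of precursors was a second scale. Per 100 precursors, premyelinating nuclei numbered 6.22, 11.2 and 10.9 in WT libraries and 15.5, 20 and 12.4 in PS19 libraries. They numbered 7.14, 9.09, 10.9 and 8.29 in CLEAR libraries and 11.1, 10.8, 17.3 and 9.14 in CLEAR_PS19 libraries. PS19 was above WT in all 3 libraries without overlap, while CLEAR_PS19 and CLEAR overlapped. On this scale tau libraries were higher by 4.88 per 100 precursors with an unadjusted exact permutation p of 0.00571. The difference in the share of barcodes also passed at nuclei of 1000 or more genes (0.105 points, exact permutation p = 0.0271) and at a marker sum of 10 or more (0.0862 points, exact permutation p = 0.0271, a limit chosen after the data were seen), both unadjusted.

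Libraries were split into 3 sets, a number fixed in the clustering, by the correlation of their granule neurons. The first was a male set with libraries of all 4 groups and the second the 4 females. The third held CLEAR replicates 1 and 2 with CLEAR_PS19 replicates 1 and 2. Within these sets the tau difference in the share was 0.149, 0.00958 and 0.0251 percentage points, so it was positive in each and largest in the first. The CLEAR difference was 0.0236 and -0.0652 points in the first sets, and the third holds no library without the mutation. Within the third set, counts of CLEAR replicates 1 and 2, and of CLEAR_PS19 replicates 1 and 2, differed less than those of other same-group pairs. Chi-square per gene was 4.02 and 5.23 in these pairs, against 44.5 to 136.5. That is more than counting noise, but it does not show whether a pair came from separate animals. Each library was kept and counted as a replicate in the p-values, except in the alternative that summed each pair.

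**Figure D3:**
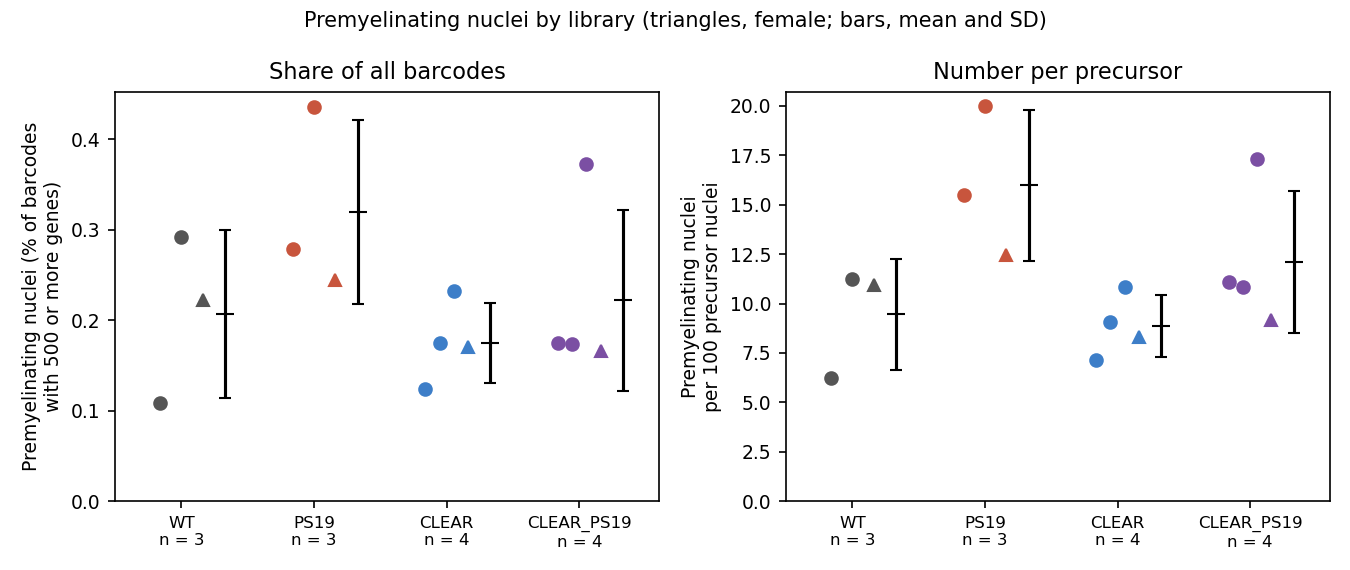
Premyelinating nuclei in each library as percent of barcodes with 500 or more genes (left) and per 100 precursor nuclei (right); circles are males, triangles females, bars mean and SD. PS19 libraries lie at 12.4 to 20 per 100 precursors and WT libraries at 6.22 to 11.2, while the shares of all barcodes overlap between the groups.

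The balance of Gpr17 and Enpp6 within the set did not differ detectably with genotype, among nuclei that the rule chose by the same genes. The limits were unequal, 1 UMI of Gpr17 or 3 of Enpp6, so this share describes the nuclei as chosen and not the tissue. Nuclei on the Enpp6 side made up 66.7%, 72.7% and 80% of the set in WT libraries and 64.5%, 70.5% and 68.2% in PS19 libraries. They made up 50%, 58.8%, 89.5% and 64.7% in CLEAR libraries and 65.2%, 35.7%, 62.5% and 68.8% in CLEAR_PS19 libraries. All groups overlapped. The tau difference was -6.56 percentage points (SE 6.05, exact permutation p = 0.306) and the CLEAR difference -8.53 points (exact permutation p = 0.231). The former was -2.61 points without CLEAR replicate 3, -2.84 without CLEAR_PS19 replicate 2 and -3.08 without called doublets. The CLEAR difference was -12.5 points without CLEAR replicate 3 (unadjusted exact permutation p = 0.03) and turned to 1.07 points when libraries were compared within their sets, described above.

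Gene levels within the set were tested on UMIs summed per library, 53680 to 231184 UMIs, with edgeR's quasi-likelihood test over 2417 genes. With the tau transgene, averaged over both CLEAR states, 5 genes (0.207%) passed an adjusted p of 0.05, and 170 had an unadjusted p under 0.05. Ermard, Gm3448, Col20a1 and Col11a1 rose and Ptprd fell. DESeq2 called 6.

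Ermard encodes a membrane protein of the endoplasmic reticulum linked to RNA degradation (GRCm38 chr17:15041208-15090044, plus strand). Its level was 72.9, 65.3 and 46.2 CPM in WT and 321, 298 and 161 CPM in PS19. It was 65.9, 83.2, 29.5 and 91.6 CPM in CLEAR and 125, 183, 535 and 168 CPM in CLEAR_PS19. Every library with the transgene was above every library without it. The log2 difference was 2.09 (SE 0.34, edgeR adjusted p = 0.0065). Ermard was found in 110 nuclei, 18.5% of the WT nuclei, 46.4% of the PS19 nuclei, 24.6% of the CLEAR nuclei and 39.4% of the CLEAR_PS19 nuclei.

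Gm3448 (chr17:14995787-15041537, minus strand) overlaps Ermard and Gm3435 on the other strand and Tcte3 on its own strand. The overlap with Ermard runs from 15041208 to 15041537, at the GENCODE start of both genes. Whether the counts of Gm3448 and Ermard share reads was not tested. The level of Gm3448 was 72.9, 40.8 and 23.1 CPM in WT and 158, 238 and 196 CPM in PS19. It was 49.4, 71.3, 19.6 and 122 CPM in CLEAR and 100, 119, 338 and 205 CPM in CLEAR_PS19. PS19 stood clear of WT, and CLEAR replicate 4 was above CLEAR_PS19 replicates 1 and 2. The log2 difference was 2.00 (SE 0.36, edgeR adjusted p = 0.0085).

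Col20a1 and Col11a1 are fibril-associated and fibrillar collagens. Col20a1 (chr2:180986535-181018363, plus strand, overlapping 9230112E08Rik on the same strand) stood at 36.5, 49.0 and 69.3 CPM in WT and 152, 199 and 138 CPM in PS19. It stood at 32.9, 23.8, 29.5 and 30.5 CPM in CLEAR and 150, 54.9, 121 and 112 CPM in CLEAR_PS19. The groups separated within each CLEAR state, with CLEAR_PS19 replicate 2 the lowest of the tau libraries. The log2 difference for Col20a1 was 1.82 (SE 0.31, edgeR adjusted p = 0.00727). Col11a1 (chr3:114030540-114220718, plus strand) stood at 36.5, 89.8 and 80.8 CPM in WT and 158, 151 and 92.2 CPM in PS19. It stood at 49.4, 71.3, 19.6 and 45.8 CPM in CLEAR and 142, 146.5, 172 and 149 CPM in CLEAR_PS19. Here too every library with the transgene was above every one without it, PS19 replicate 3 by the least. The log2 difference for Col11a1 was 1.36 (SE 0.28, edgeR adjusted p = 0.0331).

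Ptprd, a receptor tyrosine phosphatase of neural adhesion (chr4:75941238-78211961, minus strand), was the gene that fell. It stood at 984, 1070 and 832 CPM in WT and 521, 705 and 691 CPM in PS19. It stood at 609, 547, 1336 and 702 CPM in CLEAR and 259, 275, 358 and 130 CPM in CLEAR_PS19. Within each CLEAR state the tau libraries were lower without overlap, and across states PS19 overlapped CLEAR. Its log2 difference was -1.04 (SE 0.22, edgeR adjusted p = 0.0338). Among nuclei with a summed marker count of 10 or more alone it was -0.49 (edgeR adjusted p = 0.889), a limit chosen after the data were seen. At that limit Ermard, Gm3448 and Col20a1 were still called and Col11a1 was not (1.14, edgeR adjusted p = 0.156).

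On leaving out each of 14 libraries in turn, Ermard stayed called in 13 fits (1.76 to 2.25), Col20a1 in 12 (1.72 to 1.96) and Gm3448 in 11 (1.74 to 2.22), but Ptprd in 4 (-1.15 to -0.84) and Col11a1 in 3 (1.19 to 1.52). Without WT replicate 2 none passed (Ermard 2.07, edgeR adjusted p = 0.0586), and without PS19 replicate 3 there were 9. Without PS19 replicate 2 there was 1 call, without WT replicate 3 there were 2, and without WT replicate 1, CLEAR_PS19 replicate 1 or CLEAR_PS19 replicate 2 there were 3. Without called doublets Col20a1 was 1.66 (SE 0.43, edgeR adjusted p = 0.134).

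**Figure D4:**
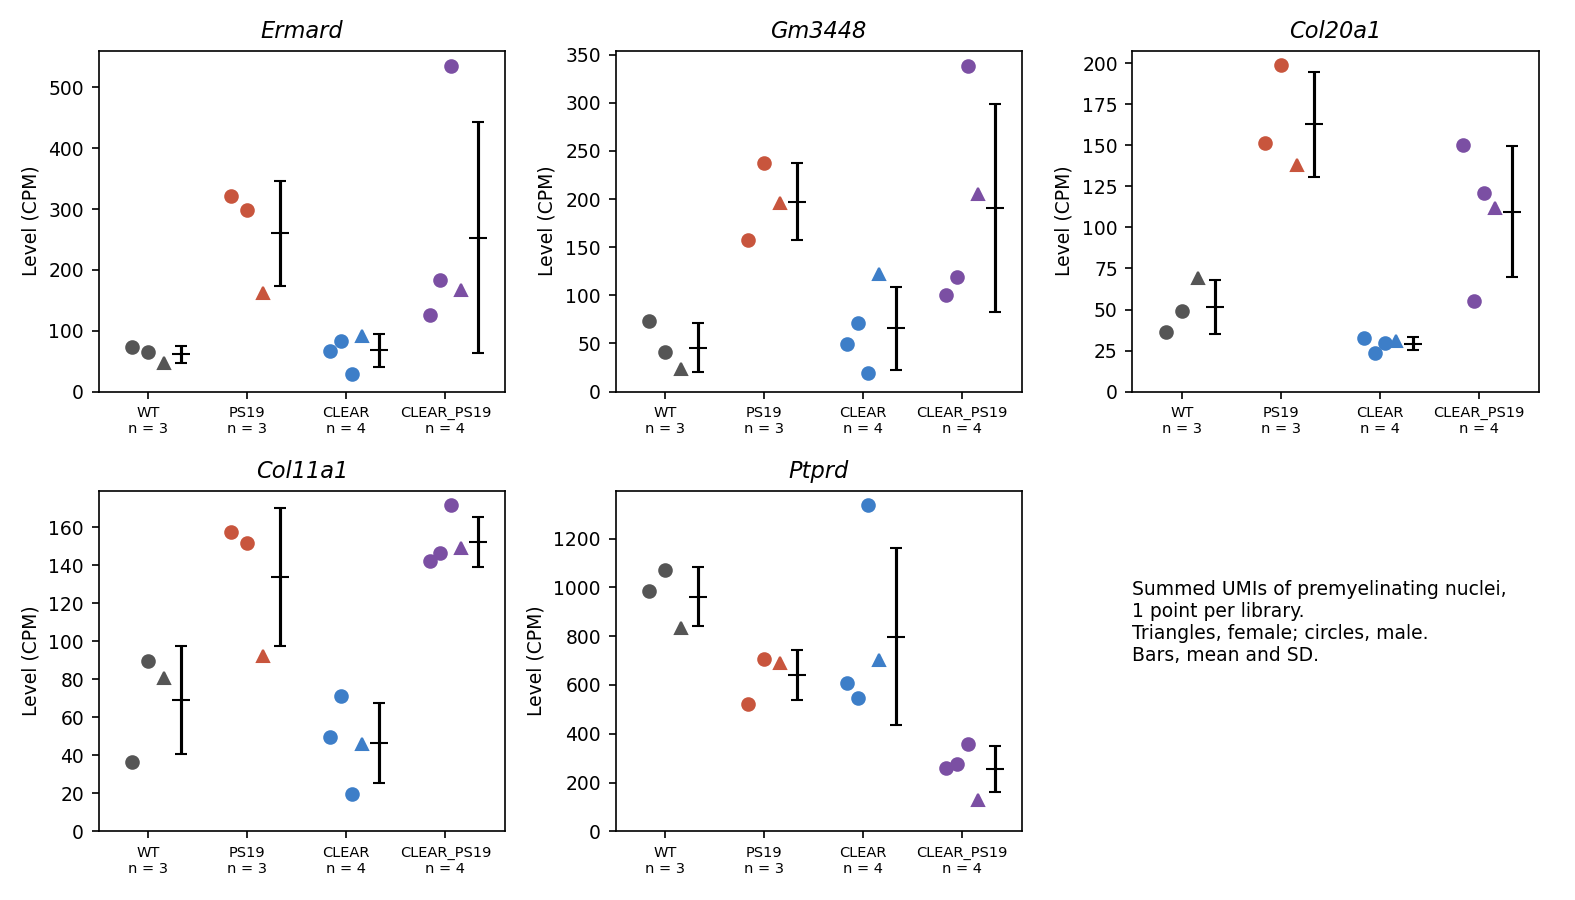
Level (CPM of UMIs summed over the premyelinating nuclei) of the 5 genes called with the tau transgene, 1 point per library; circles are males, triangles females, bars mean and SD. Ermard and Col11a1 show no overlap between libraries with and without the transgene, and Ptprd is lowest in CLEAR_PS19 (130 to 358 CPM).

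Set beside the other stages, the first 3 of these genes rose in precursors too. In precursors the tau difference in log2 was 2.03 for Ermard (SE 0.21), 2.14 for Gm3448 and 2.42 for Col20a1, all called by edgeR. Col11a1 (0.23, edgeR adjusted p = 0.839) and Ptprd (-0.08, edgeR adjusted p = 0.979) were not called there. In mature cells Gm3448 passed at 0.79 (edgeR adjusted p = 0.0246), while Ermard (0.49, edgeR adjusted p = 0.181), Col20a1 (1.46, edgeR adjusted p = 0.0672) and Ptprd (-0.22, edgeR adjusted p = 0.379) did not. The libraries are the same, so these are not independent tests. In bulk hippocampus at 9 months Ermard differed by 0.35 (edgeR adjusted p = 0.0505), Col20a1 by 0.30, Col11a1 by 0.29 and Ptprd by -0.06, none of them called, and Gm3448 was listed at 0.

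A test of the difference itself was fitted over summed counts of both types with each library as a block. The tau difference in premyelinating nuclei exceeded that in mature cells for 3 of 11156 genes (0.0269%; 573 at an unadjusted p under 0.05): Ermard by 1.66, Mink1 by 1.68 and Ptprt by 1.45 in log2 (edgeR adjusted p = 0.00197, 0.0012 and 0.00197). Mink1 encodes a stress-pathway kinase and Ptprt a receptor phosphatase. Mink1 in the premyelinating nuclei stood at 91.1, 114 and 196 CPM in WT, 66.7, 90.8 and 496 CPM in PS19, 98.8, 95.1, 108 and 107 CPM in CLEAR, and 652, 513, 308 and 373 CPM in CLEAR_PS19. All CLEAR_PS19 libraries were high, and of PS19 replicate 3 alone. Against precursors none of 8441 genes (0%) differed in edgeR, and 444 had an unadjusted p under 0.05. With DESeq2's size factors 1 gene did. On leaving out 1 library at a time, an alternative chosen after the data were seen, Mink1 and Ptprt were called against mature cells in all 14 fits, and Ermard in 13, the exception being without CLEAR_PS19 replicate 3 (1.46, edgeR adjusted p = 0.0671). The count of calls was 2 to 4 in 6 of these fits and 7 to 21 in the other 8, each without 1 of WT 2 and 3, PS19 1, 2 and 3, CLEAR 3 and CLEAR_PS19 2 and 4. Against precursors it was 2 without PS19 1, 1 without each of WT 1, PS19 2, PS19 3 and CLEAR 4, and 0 otherwise.

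Within single backgrounds few genes passed. PS19 against WT gave 0 of 2417 calls (0%; 109 at an unadjusted p under 0.05, edgeR), with Rarb, 9630028H03Rik, Ermard, Gm3448 and Col20a1 at the smallest p, not called. CLEAR_PS19 against CLEAR gave 3 (0.124%; 138 unadjusted). Mink1 rose by 2.31 in log2 (SE 0.43) and Ptprd fell by 1.56 (SE 0.30), both with an edgeR adjusted p of 0.0292. Tmem117, a membrane protein, fell by 2.16 (SE 0.44, edgeR adjusted p = 0.0417), from 76.3 to 196 CPM in CLEAR to 25.1 to 37.3 CPM in CLEAR_PS19.

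No gene of the stage's own list was called with tau within the set. Of the 16 in the premyelinating list 14 were tested and none was called, 3 of them the genes that chose the nuclei. Of the other 11 (2 at an unadjusted p under 0.05), 8 had positive and 3 negative differences, with a median of 0.18 against -0.00205 over all genes tested. Tcf7l2 (0.55, SE 0.16, edgeR adjusted p = 0.236) and Itpr2 (0.39, SE 0.14, edgeR adjusted p = 0.531) had the smallest p. Counting genes outside the type rules alone, 2 of 7 precursor genes tested were positive (median -0.23), 5 of 16 myelin genes (median -0.11), 9 of 12 lineage factors (median 0.08) and 0 of 3 genes that hold back differentiation (median -0.38), none called. Among 6 V-ATPase genes tested 4 were positive (median 0.08), and among 7 lysosome genes 2 (median -0.12), none called. Of the TFEB and death genes only Tfeb (0.48, edgeR adjusted p = 0.877) and Mitf (0.10, edgeR adjusted p = 0.992) were abundant enough to test, and of the cholesterol and cell cycle lists no gene was. Genes reached the test only when abundant enough in about as many libraries as the smallest group holds, so these counts do not speak for whole lists. The share of nuclei at a summed marker count of 6 to 9 differed between groups, as given above. Its part in these directions was not tested.

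The transgene itself was checked through Prnp and mouse Mapt (tau). Prnp, whose promoter and flanking sequence the transgene carries, averaged 42.3 ± 13.5 CPM in WT premyelinating nuclei and 52.7 ± 4.6 CPM in PS19, from 80 UMIs in all libraries, which was too few to test. In precursors it stood at 48.8 to 59.1 CPM in WT, 85.4 to 106.5 CPM in PS19, 50.2 to 87.0 CPM in CLEAR and 95.7 to 161 CPM in CLEAR_PS19, without overlap between libraries with and without tau within each CLEAR state. Mapt in the premyelinating nuclei averaged 1244 CPM in WT, 991 CPM in PS19, 1191 CPM in CLEAR and 787 CPM in CLEAR_PS19 (log2 difference -0.42, SE 0.17, edgeR adjusted p = 0.595).

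The CLEAR mutation was followed first at its gene. Atp6v1h (chr1:5070018-5162529, plus strand, overlapping Rgs20) in the premyelinating nuclei stood at 54.7, 139 and 69.3 CPM in WT and 84.9, 112 and 104 CPM in PS19. With the mutation it stood at 49.4, 95.1, 9.82 and 122 CPM in CLEAR and 75.2, 27.5, 40.4 and 74.5 CPM in CLEAR_PS19. The groups overlapped. Pooled, it was 100.4 CPM without the mutation (95% exact interval 79.0 to 125.9, from 75 UMIs) and 55.5 CPM with it (40.3 to 74.5, from 44 UMIs). These intervals cover counting error only and leave out the spread between libraries. The log2 difference over libraries was -0.60 (exact permutation p = 0.123, adjusted 0.148 over 6 tests of this gene). It was -0.37 without CLEAR replicate 3 (exact permutation p = 0.229) and -0.76 without CLEAR replicate 4 (exact permutation p = 0.0529). Mature oligodendrocytes of the same libraries stood at 82.9 to 135 CPM without and 11.5 to 37.1 CPM with the mutation, a log2 difference of -2.23 (exact permutation p = 0.000816, the smallest this design can give). Precursors stood at 77.7 to 103 CPM without and 31.9 to 85.2 CPM with it, a difference of -0.48 (exact permutation p = 0.00408). The difference was smaller in the premyelinating nuclei than in mature cells by 1.63 in log2 (exact permutation p = 0.00735, adjusted 0.0110), and it differed from that in precursors by -0.12 (exact permutation p = 0.762). Within library sets the first comparison was 0.442 in the male set and 2.60 in the females, where Atp6v1h in the premyelinating nuclei differed by -1.46 and 0.14. In the edgeR fit over all genes with library as a block, the comparison with mature cells gave 1.32 (SE 0.38, edgeR adjusted p = 0.223), not called.

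**Figure D5:**
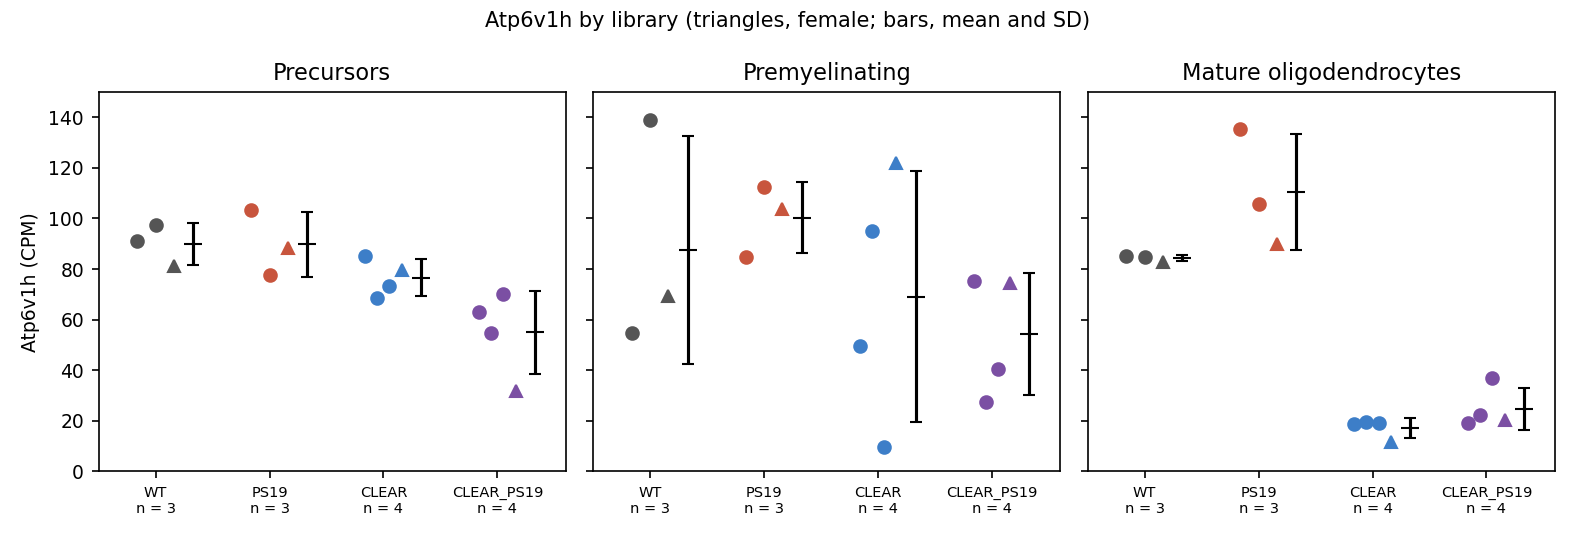
Atp6v1h level (CPM, 1 point per library; circles are males, triangles females, bars mean and SD) in precursors, premyelinating nuclei and mature oligodendrocytes. Mature cells of CLEAR and CLEAR_PS19 lie at 11.5 to 37.1 CPM against 82.9 to 135 without the mutation, while premyelinating nuclei overlap (9.82 to 122 against 54.7 to 139).

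No gene within the set was called for the CLEAR mutation, Atp6v1h included. Averaged over tau, 0 of 2417 genes passed in edgeR (0%) and 0 in DESeq2, with 165 at an unadjusted p under 0.05. Without CLEAR replicate 3 edgeR called 10 genes and without CLEAR replicate 4 it called 1. The smallest p values belonged to Rnf220 (-1.25), Gpr37l1 (1.35), Kcnj3 (0.96), Gm37459 (-1.36) and C430049B03Rik (0.95), each with an edgeR adjusted p of 0.543. CLEAR against WT gave 0 (0%; 95 unadjusted), CLEAR_PS19 against PS19 gave 0 (0%; 137 unadjusted), and the interaction of tau and CLEAR gave 0 (0%; 90 unadjusted) in edgeR. Of 11 premyelinating genes outside the rules 10 had positive differences with the mutation (median 0.19, against 0.02 over all genes), of 6 V-ATPase genes 5 (median 0.21), of 7 lysosome genes 5 (median 0.11) and of 16 myelin genes outside the rules 6 (median -0.07), none called. In the interaction, 7 of 7 precursor genes outside the rules were positive (median 0.25) and 13 of 16 myelin genes negative (median -0.56), none called, while over all 2417 genes 1192 were positive (median -0.00836). Nuclei at a summed marker count of 6 to 9 made up 26.2% of CLEAR and 12.1% of CLEAR_PS19 nuclei, against 27.8% of WT and 19.6% of PS19. Pooled, they held less precursor RNA (6672 against 15277 CPM at 10 or more) and more myelin RNA (16861 against 9716). Their part in these directions was not tested.

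Against mature cells, the CLEAR difference was lower in the premyelinating nuclei for 8 of 11156 genes (0.0717%; 557 unadjusted), and against precursors for 0 of 8441 (0%; 420 unadjusted, edgeR). The 8 were Reln (-6.38), Cntnap2 (-2.45), Rbfox1 (-1.34), Unc5d (-3.10), Fgf14 (-1.29), Kcnb2 (-1.76), 6330411D24Rik (-4.60) and Agbl4 (-1.99). With DESeq2's size factors 3 were called. Leaving out 1 library at a time, an alternative chosen after the data were seen, gave 1 call without CLEAR_PS19 1 or CLEAR_PS19 2 and 5 without WT 1 or CLEAR 2. It gave 14 to 36 without each of WT 3, PS19 3, CLEAR 1, CLEAR 3, CLEAR_PS19 3 and CLEAR_PS19 4, and 7 to 10 without each other library. Against precursors there were 3 calls without PS19 3, 5 without CLEAR 3 and 1 without CLEAR_PS19 3. Reln is the secreted guide of neuronal layering, Cntnap2 an axonal adhesion protein, and Fgf14 a regulator of sodium channels. Precursors of these libraries also held Fgf14 (1774 to 2868 CPM) and Rbfox1 (1335 to 2027 CPM). Reln rested on 73 of 74 UMIs in the PS19 group, 290 CPM in PS19 replicate 2 and 36.4 CPM in PS19 replicate 1, with 0 in 11 of 14 libraries. Cntnap2 had 134 of 159 UMIs in the PS19 group, 476 CPM in PS19 replicate 2 and 127 CPM in PS19 replicate 1, and Unc5d stood at 206 CPM in PS19 replicate 1. Without PS19 replicate 2 the differences were -3.81 for Reln and -1.16 for Cntnap2 (edgeR adjusted p = 0.797 and 0.997). Without PS19 replicate 1 they were -1.77 for Unc5d and -0.90 for Rbfox1 (edgeR adjusted p = 0.832 and 0.383). On the other side of the comparison, mature cells of CLEAR_PS19 replicate 4 were the highest of 14 libraries for 7 of the 8 genes, Reln being the exception. They held Rbfox1 at 435 CPM against at most 169 in the other 13 libraries, Fgf14 at 198 against at most 114, and 6330411D24Rik at 25.1 against at most 10.6. Neuronal markers in those libraries summed to 370 CPM (PS19 replicate 1) and 173 CPM (PS19 replicate 2) in the premyelinating nuclei; their part in these calls was not tested.

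Bulk hippocampus gave a measure of the stage's genes in libraries that the rule did not use. Other cells hold these genes too. In the nuclei, the 13 of them outside the type rules had 15982 UMIs in premyelinating nuclei and 20100 in precursors. They had 30234 UMIs in mature cells and 13496 in microglia. Neurons, astrocytes and all other nuclei were left out of these sums, which therefore give no share of the whole tissue. The part of these other types in the bulk differences was not tested. In bulk RNA, more cells of a type and more RNA per cell cannot be told apart. At 9 months, 8 of 16 premyelinating genes were called between PS19 and WT in edgeR, 7 higher and 1 lower, against 12.8% of 16133 genes called overall. The median log2 difference of the 16 was 0.32, against -0.01 over all genes. Among the 16, 13 had an unadjusted edgeR p under 0.05, as did 4183 of all 16133 genes. The count fell to 5 without PS19 replicate 3 or 4 and to 4 without PS19 replicate 5.

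Bcas1 in bulk stood at 132, 136, 142, 122 and 151 CPM in WT and 165, 180, 197 and 210 CPM in PS19 at 9 months. Every PS19 library was above every WT library. The log2 difference for Bcas1 was 0.42 (SE 0.09, edgeR adjusted p = 0.00194). Enpp6 stood at 9.18, 9.93, 10.4, 10.7 and 14.2 CPM in WT and 14.5, 12.6, 18.2 and 22.1 CPM in PS19, overlapping at 1 library on each side, with a difference of 0.59 (SE 0.17, edgeR adjusted p = 0.0241). Gpr17 stood at 47.7, 53.4, 42.1, 40.7 and 40.0 CPM in WT and 58.9, 70.7, 55.2 and 51.8 CPM in PS19, with a difference of 0.37 (SE 0.09, edgeR adjusted p = 0.0101). WT replicate 2 lay above the lowest PS19 library. Gpr17 lies within Lims2, an adhesion adaptor, and the bulk counts used no strand, so their reads cannot be told apart; Lims2 differed by 0.39 (edgeR adjusted p = 0.0443) and kept its call in 12 of 25 alternatives.

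The clearest separation was in Sirt2, at 114, 119, 112, 114 and 110 CPM in WT and 150, 147, 156 and 140 CPM in PS19. Its log2 difference was 0.35 (SE 0.04, edgeR adjusted p = 6.54e-06), without overlap. Itpr2 differed by 0.26 and 9630013A20Rik by 0.99 (SE 0.27), both without overlap. Cemip2, a cell-surface protein linked to hyaluronan, ranged from 16.7 to 22.7 CPM in WT and from 15.0 to 17.0 CPM in PS19. It was the gene that fell, by 0.29 (edgeR adjusted p = 0.046), with the groups overlapping, and kept its call in 11 of 25 alternatives. At 9 months 11 of 24 myelin genes were called higher too, with a median of 0.29. At 4 months the median was 0.28 for myelin genes (23 of 24 positive) and 0.06 for premyelinating genes. For the interaction of age with tau the medians were -0.03 (11 of 24 positive) and 0.24 (12 of 16 positive). The difference between the lists was not tested. Sirt2 and Bcas1 are also expressed in mature cells, at 172 and 609 CPM, and Itpr2 in microglia, at 400 CPM. Pdgfra did not pass (0.07, edgeR adjusted p = 0.509).

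At 4 months 0 of the 16 were called between PS19 and WT, in edgeR or DESeq2, where 0.0186% of all genes were. An unadjusted edgeR p under 0.05 was found for 1 of the 16 and for 595 of all 16133 genes. Bcas1 then ranged from 110 to 142 CPM in WT (median 123) and 130 to 165 CPM in PS19 (median 151), a difference of 0.29 with an edgeR adjusted p of 0.67. Of the 16, 10 were positive and 6 negative, with a median of 0.06. Between 4 and 9 months, averaged over genotype, 4 of the 16 were called where 14% of all genes were. Bcas1 (0.22), Itpr2 (0.41) and Sirt2 (0.09) were higher at 9 months and Gpr17 was lower by 0.26 (edgeR adjusted p = 0.00732). In WT alone none of the 16 and 0% of all genes were called with age in edgeR (1802 genes at an unadjusted p under 0.05); in PS19 alone 3 of the 16 were, all higher, where 17.3% of all genes were. The interaction of age with tau was called for 1 of the 16, Sirt2 (0.30, edgeR adjusted p = 0.00195), where 5.41% of all genes were called.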

How the data were processed

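Counts of UMIs per gene and barcode from 14 libraries of hippocampal nuclei (10x 3' kit) were deposited as matrices made by Cell Ranger 5.0.1, per the file headers, on mm10, per the submitters' processing notes, which also name Seurat. Bulk RNA libraries were deposited as read counts per gene from featureCounts 2.0.0 (paired reads over exons, summed by gene, no strand), per the file headers, of which 1 names the tool, and the notes name cutadapt, STAR and DESeq2 besides. The aligner's settings, and whether the nuclei counts used the strand, are not given in the sources used here. The deposited matrices held 144991 barcodes, of which 142840 had 500 or more genes.

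Members and gene lists were chosen with earlier results of these data known. Precursors held at least 2 UMIs of Pdgfra and 3 of Ptprz1, Vcan and Lhfpl3, and at most 2 of Gpr17 and Enpp6. Mature oligodendrocytes held at least 4 UMIs of Mog and Mag, no Pdgfra or Gpr17 and at most 2 of Enpp6, and both types at most 3 of Snap25 and Rbfox3. Microglia held at least 4 UMIs of Csf1r, P2ry12 and Cx3cr1. Levels are on the counts-per-million scale (CPM), relative to the UMIs summed over the nuclei of a type in a library. Doublets were called per library with Scrublet (scanpy 1.11.5) at an assumed 0.8% per 1000 barcodes, and kept except in an alternative.

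Sums per library were tested with edgeR 4.0.16 (R 4.3.3, limma 3.58.1): TMM scaling, filterByExpr, the quasi-likelihood test and Benjamini-Hochberg adjustment over all genes tested, with sex as a covariate. Differences between types used library as a block. Library sets came from the correlation of granule neurons (at least 3 UMIs of Prox1 and 2 of Snap25 and Rbfox3), with the number of sets fixed at 3. Single values were tested by exact two-sided permutation of one genotype within the other (1400 or 1225 relabellings), with Benjamini-Hochberg adjustment over 4 shares and 6 values of Atp6v1h, whose log2 CPM used a prior count of 2. The 21 bulk libraries were fitted together in 4 groups. The edgeR fit was also run on simulated counts with the same spread for every gene and no library sets. That run does not show how the fit behaves with the library sets seen here. Named genes were the called members of each list with up to 4 of its most abundant, the called genes of each contrast or the 5 with the smallest p, the 20 highest and 10 lowest genes against both other types (ratio of mean CPM plus 5, at least 20 CPM in the nuclei or 50 in both other types), and Prnp, Mapt and Atp6v1h (some genes under this rule are not reported here); others were chosen after their values were seen, among them the cell cycle genes at 0, the genes that split the set by Gpr17 and Enpp6, Mobp, Aspa and Trf in the split by marker count, Ctsl, Gjc3, Atp6v0a2 and Atp6v0a1. Alternatives were DESeq2 1.42.0, its size factors, no filter on low counts, other limits on marker counts, genes and doublets, thinning to 2000 UMIs, library sets or replicate numbers as blocks, and leaving out each library. Coordinates are from GENCODE vM21 (GRCm38) and promoters from RefSeq (GRCm38.p6). Python 3.11.15 with numpy 2.4.6, scipy 1.17.1, pandas 2.3.3 and matplotlib 3.10.9 was used. Replicate 2 of PS19 in bulk at 9 months was not analysed here.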

Additional observations from a re-analysis of the deposited data

Results flagged for a closer look

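In CLEAR_PS19 the share of premyelinating nuclei was 0.372% in replicate 3, far from the 0.166% to 0.175% of the other 3 libraries. The same library held the highest Ermard level in these nuclei, 535 CPM against 125 to 183 CPM in the others of its group. That library was also the highest of its group in precursors (225 CPM against 77.3 to 82.3) and in mature cells (74.2 CPM against 34.9 to 41.0). In bulk RNA at 4 months Gpr17 stood at 69.4 CPM in PS19 replicate 1, against 59.3 to 63.1 CPM in the other 5 libraries. A distance of that size from the rest of a group was looked for in 50 groups of values and found in these 3, and chance gives about 1 in 20.

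The CLEAR difference in Atp6v1h was tested between stages and was less negative in premyelinating nuclei than in mature oligodendrocytes by 1.63 in log2 (exact permutation, adjusted p = 0.0110). Leaving out 1 library at a time gave 1.38 to 1.89, and a prior count of 0.5 gave 1.48 (exact permutation p = 0.0229). Within library sets it was 0.442 in the male set and 2.60 in the females. In the edgeR fit over all genes with library as a block it was 1.32 (SE 0.38, edgeR adjusted p = 0.223), not called.

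Of all genes, 8 had a lower CLEAR difference in premyelinating nuclei than in mature cells when edgeR tested the difference. In log2, premyelinating minus mature, these were Reln (-6.38), Cntnap2 (-2.45), Rbfox1 (-1.34), Unc5d (-3.10), Fgf14 (-1.29), Kcnb2 (-1.76), 6330411D24Rik (-4.60) and Agbl4 (-1.99). With DESeq2's size factors the count was 3, and leaving out 1 library at a time gave 1 to 36. Reln held 73 of its 74 UMIs in PS19 libraries, and mature cells of CLEAR_PS19 replicate 4 were the highest of 14 libraries for 7 of the 8 genes. The tau difference was higher for Mink1 by 1.68, Ptprt by 1.45 and Ermard by 1.66. Ptprt in premyelinating nuclei ranged from 843 to 1559 CPM in WT, 1309 to 1487 CPM in PS19, 580 to 1206 CPM in CLEAR and 652 to 1428 CPM in CLEAR_PS19, so libraries with and without the transgene overlapped within each CLEAR state. In mature cells it ranged from 14.3 to 62.5 CPM without the transgene and 5.09 to 24.5 CPM with it. In bulk RNA the tau difference in Sirt2 was larger at 9 than at 4 months by 0.30 (edgeR adjusted p = 0.00195).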

How the results depend on the processing

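Across 15 comparisons 277 of 333 alternative values kept their direction and side of the threshold, or for counts stayed within 1.5 times. Across 28 results on single genes, with some genes in more than 1 result, 473 of 589 values did so. The other 116 were no longer past the threshold. The tau difference in share passed per 100 precursors (4.88), at 1000 or more genes (0.105 points) and at a marker sum of 10 or more (0.0862, added after the data were seen). It did not pass in the other 23 of 26 alternatives. Leaving out 1 library gave 0.0506 to 0.101. The CLEAR difference in share then ranged from -0.0901 to -0.0360, and that in the Enpp6 side from -12.5 to -4.80 points. The latter turned to 1.07 with the library set as a stratum and to 0.933 without the 4 libraries of the third set (added after the data were seen). The cause was not tested.

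Of tau genes, 5 were called. Leaving out 1 library gave 0 to 9, and 3 were left at a marker sum of 8 or of 10, without doublets, and with CLEAR 1 and 2 and CLEAR_PS19 1 and 2 each summed. With no filter on low counts there were 37 tau genes (28 higher, 9 lower), 10 CLEAR genes and 8 interaction genes. The CLEAR count ranged from 0 to 10 on leaving out 1 library. With DESeq2's size factors the count of CLEAR calls against mature cells was 3 rather than 8, and that of tau calls against precursors 1 rather than 0. Leaving out 1 library (added after the data were seen) gave 1 to 36 CLEAR calls and 2 to 21 tau calls against mature cells, and 0 to 5 and 0 to 2 against precursors. Bulk calls at 9 months ranged from 4 to 9 on leaving out 1 library.

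Replicate numbers did not pair the samples: deviations of same-numbered nuclei libraries correlated at -0.17 to 0.21 over 19 pairs and bulk ones at -0.29 to 0.32 over 28. With the replicate block 7 tau, 23 CLEAR and 0 interaction genes were called, Atp6v1h differed by -0.82 (exact permutation p = 0.0312), the tau and CLEAR differences in share were 0.0749 and -0.0549 points, those in the Enpp6 side -6.72 and -10.1, and bulk calls were 8, 0 and 4. Depth limits these nuclei to 53680 to 231184 UMIs per library, so genes of low abundance, Bbc3 among them, could not be tested.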
